A study of Caenorhabditis elegans with 12 samples.

Results

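The 6 heated libraries of the series, out of 12 in all, are described here: 3 from mir-85(n4117) animals and 3 from WT (Bristol N2) animals of Caenorhabditis elegans. They were taken by the strain and treatment labels of the samples, and the question the comparison addresses is what differs between the strains at the end of heat shock. All 6 hold total RNA of whole worms at the L4 stage, the last larval stage, that were raised at 20°C for 44 hrs and then kept at 35°C for 3 hrs. The n4117 allele removes mir-85 and, by the study's own account, also disrupts part of the protein-coding gene F49E12.8, so the 2 losses cannot be told apart in this strain. The other 6 libraries come from both strains held at 20°C for 47 hrs.

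MicroRNAs are short RNAs that guide Argonaute proteins to messenger RNAs, whose translation and stability then fall. Heat shock makes cells transcribe chaperone genes such as hsp-70 within minutes, while much of the other transcription is reduced. In an L4 larva the hypodermis lays down the adult cuticle, for which collagen and molting genes are switched on and off in a fixed order, and the germline of the hermaphrodite moves on to making oocytes. Yolk proteins are made in the intestine of the adult.

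Total counts ranged from 23871531 to 25533070 in mir-85(n4117) and from 24640247 to 31348387 in WT, with 18080627 to 21240810 counts on protein-coding genes over the 6 libraries. Ribosomal RNA genes took 14.5% to 23.2% of the counts in mir-85(n4117) and 20.3% to 32.9% in WT. The table headers give lane 3 for the mir-85(n4117) libraries and WT replicate 1, and lane 8 for WT replicates 2 and 3. Lane 8 thus holds no mutant library of the 6, and the pair numbered 1 is the one pair sequenced in a single lane. Markers of body wall muscle, pharynx, intestine, neurons, hypodermis and germline were present in every library, and the lowest of them, the neuronal gene unc-119, still had 45.9 normalized counts. A normalized count is a read count divided by the library's effective size and scaled to the mean effective size of the 6 libraries.

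mir-85 itself (chromosome II, 8393553 to 8393658) had no read in the 3 mir-85(n4117) libraries, against 9, 6 and 2 reads in WT. These are too few reads for a fold change, and mir-85 did not pass the filter on low counts. F49E12.8, the protein-coding gene that the deletion enters (chromosome II, 8392568 to 8394305), had 11, 3.74 and 3.16 normalized counts in mir-85(n4117), against 86.7, 98.2 and 79.9 in WT. The groups did not overlap, a state that 3.4% of all genes tested showed toward higher and 3.63% toward lower values in mir-85(n4117). The log2 fold change of F49E12.8 was -3.86 with an SE of 0.49, but the adjusted p of edgeR's quasi-likelihood test was 0.349 over 15803 genes. No library went against its strain label in these genes.

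Only 3 protein-coding genes passed the limits of a call. These limits ask for an adjusted p under 0.05, an absolute log2 fold change no smaller than 1, and more than 10 normalized counts on average. The 3 genes are 0.019% of the 15803 tested. gly-20, which encodes an N-acetylglucosaminyltransferase of N-glycan processing, was the gene that rose (0.00633% of genes tested). gly-20 had 739, 767 and 790 normalized counts in mir-85(n4117), against 192, 159 and 205 in WT. Replicates of a strain lay close together, and the strains were far apart. The log2 fold change was 2.05 with an SE of 0.16, and edgeR's adjusted p was 0.0271. R11H6.4 and R11H6.5 fell (0.0127% of genes tested). R11H6.5 had 3.00, 3.74 and 9.48 normalized counts in mir-85(n4117), against 420, 569 and 426 in WT, with a log2 fold change of -6.43 (SE 0.43) and an adjusted p of 0.0257 by edgeR. R11H6.4 had 0, 0 and 1 reads in mir-85(n4117), against 227, 482 and 289 normalized counts in WT. R11H6.4 was at least 111-fold lower against a floor of 3 counts per library, and its adjusted p in edgeR was 0.0257.

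These calls rest on few libraries. With the lane as a covariate, which compares the mutant with WT replicate 1, none of them passed (edgeR's adjusted p 1.00 for gly-20 and 0.167 for both R11H6 genes), although the log2 fold changes were 2.00 for gly-20 and -6.27 for R11H6.5. Leaving out any 1 of the 6 libraries ended the call of gly-20 and of R11H6.4, and of R11H6.5 except without mir-85(n4117) replicate 3, while the log2 fold change ranged from 1.95 to 2.12 for gly-20 and from -7.08 to -6.15 for R11H6.5. DESeq2 called 3 genes higher (0.0156% of those with an adjusted p) and 8 lower (0.0416%). The other ones besides these 3 were ugt-15 and fbxa-192 toward higher, and str-115, clec-222, clec-223, F49E12.8, tsp-1 and Y47H10A.5 toward lower values.

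**Figure D1:**
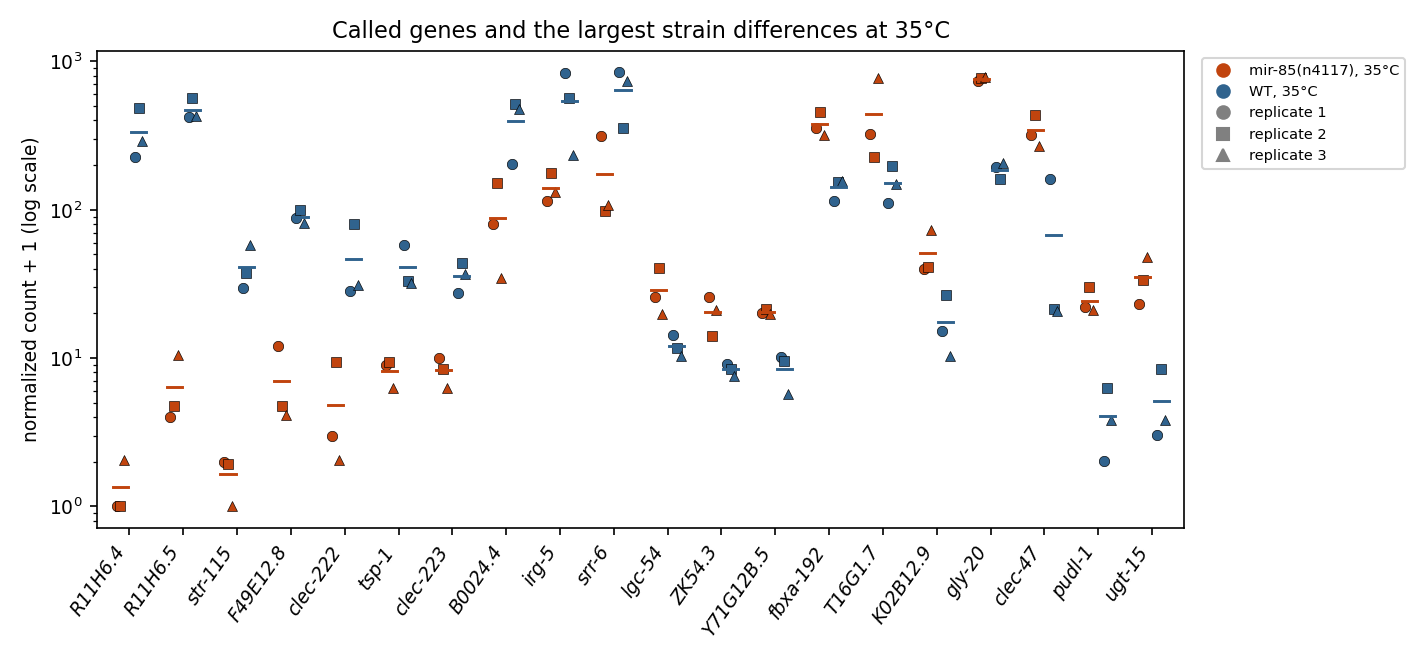
Normalized counts plus 1 (log scale) in each mir-85(n4117) library (left of each gene, red) and each WT library (right, blue) at 35°C for the called genes and the largest strain differences, with 1 symbol per replicate and lines at the means. gly-20 sits at 739 to 790 in the mutant and 159 to 205 in WT, and R11H6.4 and R11H6.5 are near the bottom of the scale in the mutant only.

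The called genes lie at 2 places on chromosome V. R11H6.4 (14609943 to 14610705) and R11H6.5 (14610713 to 14612222) are neighbours, and they were the only ones with an unadjusted p under 0.05 among the 17 protein-coding genes tested within 60 kb of R11H6.5. Their nearest neighbours R11H6.2, glb-22, ccnk-1 and hot-1 had log2 fold changes of 0.23, 0.56, -0.20 and 0.41. Around gly-20 (11282572 to 11286039), 4 of 21 genes tested had such a p, and the other 3 stand together on the side of lower coordinates. They were all lower in the mutant: the chemoreceptor gene str-115 and the C-type lectin genes clec-222 and clec-223.

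str-115 had 1, 1 and 0 reads in mir-85(n4117), against 28.6, 36.3 and 56.4 normalized counts in WT, at least 13.5-fold lower (adjusted p in edgeR 0.217). clec-222 had 2.00, 8.42 and 1.05 normalized counts in mir-85(n4117), against 27.5, 78.9 and 30.1 in WT. clec-223 had 9.0, 7.48 and 5.26 in mir-85(n4117), against 26.5, 42.7 and 35.7 in WT. No mutant library of these genes reached the lowest WT library. The log2 fold change was -3.50 (SE 0.78) for clec-222 and -2.25 (SE 0.37) for clec-223, and both adjusted p-values were 0.995 by edgeR. C03E10.3, the neighbour of gly-20 on its other side, had a log2 fold change of 0.52.

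**Figure D2:**
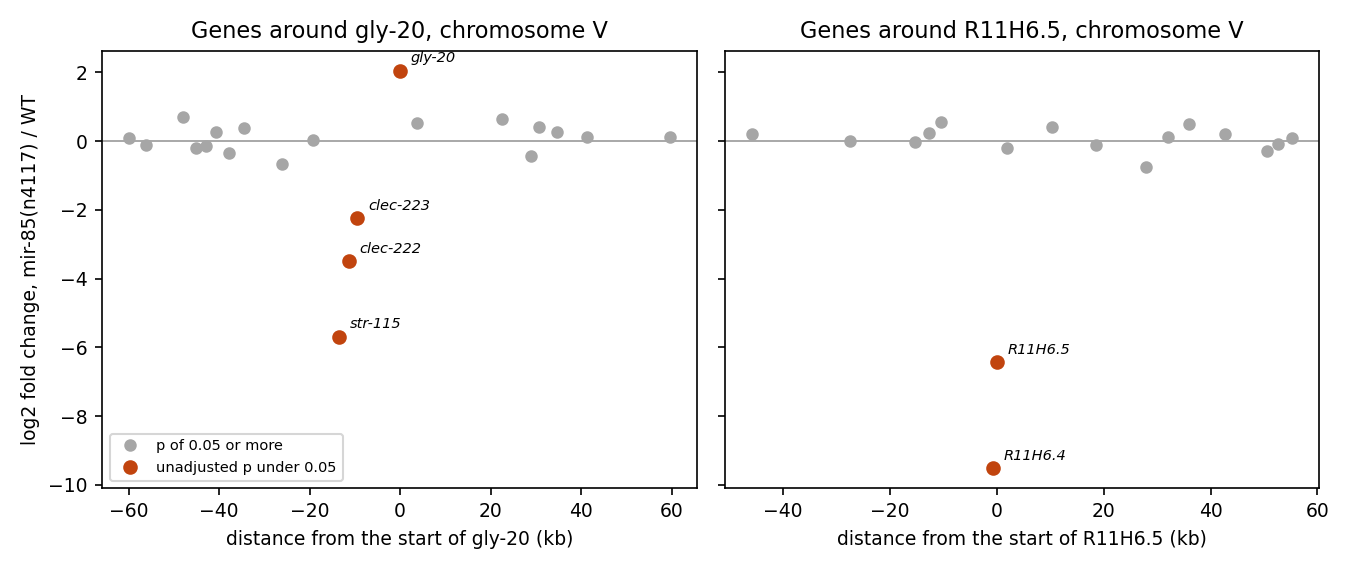
Log2 fold change of mir-85(n4117) over WT at 35°C against the distance in kb from the start of gly-20 (left) and of R11H6.5 (right), with 1 point per protein-coding gene tested within 60 kb and genes with an unadjusted p under 0.05 in red. The differences are confined to str-115, clec-222, clec-223 and gly-20 on the left and to R11H6.4 and R11H6.5 on the right within these windows.

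Over the whole genome, 376 genes (2.38%) had an unadjusted p under 0.05 in edgeR. Among protein-coding genes averaging more than 10 normalized counts, 291 had such a p and libraries that did not overlap between strains, 129 of them higher in mir-85(n4117) and 162 lower. Chromosome V held 26.1% of all genes with such a p and no overlap, and 20.2% of all genes tested. It also held 14 of the 20 genes with the largest differences. Among these 14 are neighbouring genes already described, namely R11H6.4 with R11H6.5, and gly-20 with str-115, clec-222 and clec-223.

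Besides those already named, the largest differences toward lower values were those of tsp-1 (a tetraspanin gene), B0024.4, irg-5 (an infection response gene) and srr-6 (a chemoreceptor gene), with log2 fold changes of -2.44, -2.18, -1.96 and -1.90. tsp-1 had 8.0, 8.42 and 5.26 normalized counts in mir-85(n4117), against 57.1, 32 and 31 in WT. irg-5 had 113, 175 and 131 in mir-85(n4117), against 831, 569 and 232 in WT. The WT values of irg-5 lay far apart, and the groups still did not overlap.

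The largest differences toward higher values outside gly-20 were those of ugt-15 (a UDP-glucuronosyltransferase gene), pudl-1, the lectin gene clec-47, K02B12.9, T16G1.7, the F-box gene fbxa-192, Y71G12B.5, ZK54.3 and the ion channel gene lgc-54, with log2 fold changes between 1.32 and 3.03. ugt-15 had 22.0, 32.7 and 47.4 normalized counts in mir-85(n4117), against 2.04, 7.47 and 2.82 in WT. fbxa-192 had 357, 453 and 317 in mir-85(n4117), against 113, 154 and 156 in WT. clec-47 had 319, 437 and 269 in mir-85(n4117), against 161, 20.3 and 19.8 in WT, where replicate 1, of the mutant's lane, stands apart. None of these 13 genes passed the adjustment in edgeR (adjusted p 0.995 each).

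The inducible heat shock genes were very abundant in both strains, and their groups overlapped. hsp-70 had 123157, 109451 and 145474 normalized counts in mir-85(n4117), against 142785, 109329 and 157103 in WT. The hsp-70 log2 fold change was -0.11 (SE 0.19), with an adjusted p of 0.995 by edgeR. Its paralogs F44E5.4 and F44E5.5 are near-identical, so reads that align to both may be left out of their counts. Their log2 fold changes were 0.17 (SE 0.30) and 0.11 (SE 0.28). Replicate 2 was the lowest library of each strain for all 3 HSP70 genes, as for F44E5.4 with 19795, 15184 and 28666 in mir-85(n4117), against 21755, 13092 and 21880 in WT.

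Of the small heat shock genes, hsp-16.2 had 50200, 43607 and 56188 normalized counts in mir-85(n4117), against 54130, 45778 and 54777 in WT. hsp-16.41 had 57100, 49814 and 70242 in mir-85(n4117), against 67077, 65226 and 70633 in WT. The log2 fold change was -0.04 (SE 0.16) for hsp-16.2 and -0.20 (SE 0.17) for hsp-16.41. The 4 other family members form 2 near-identical pairs, named hsp-16.1 and hsp-16.48 in the annotation used. They had at most 118 normalized counts in any library, so their levels are uncertain.

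Among 59 other chaperone genes, 27 had a positive and 32 a negative log2 fold change, with a median of -0.01 against 0.02 over all genes tested. hsp-1, the constitutive HSP70 of the cytosol, had 77444, 81394 and 79036 normalized counts in mir-85(n4117), against 95232, 109390 and 100787 in WT (log2 fold change -0.36, SE 0.13, unadjusted p 0.029 by edgeR). hsp-90 had 167056, 174585 and 166683 in mir-85(n4117), against 192506, 211903 and 196449 in WT (log2 fold change -0.24, SE 0.13). hsp-1 and hsp-90 were among the 3 of 59 genes that were lower without overlap, against 3.63% of all genes. Both adjusted p-values were 0.995 in edgeR. The small heat shock gene hsp-12.6 was the other chaperone with an unadjusted p under 0.05, with a log2 fold change of -0.59.

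**Figure D3:**
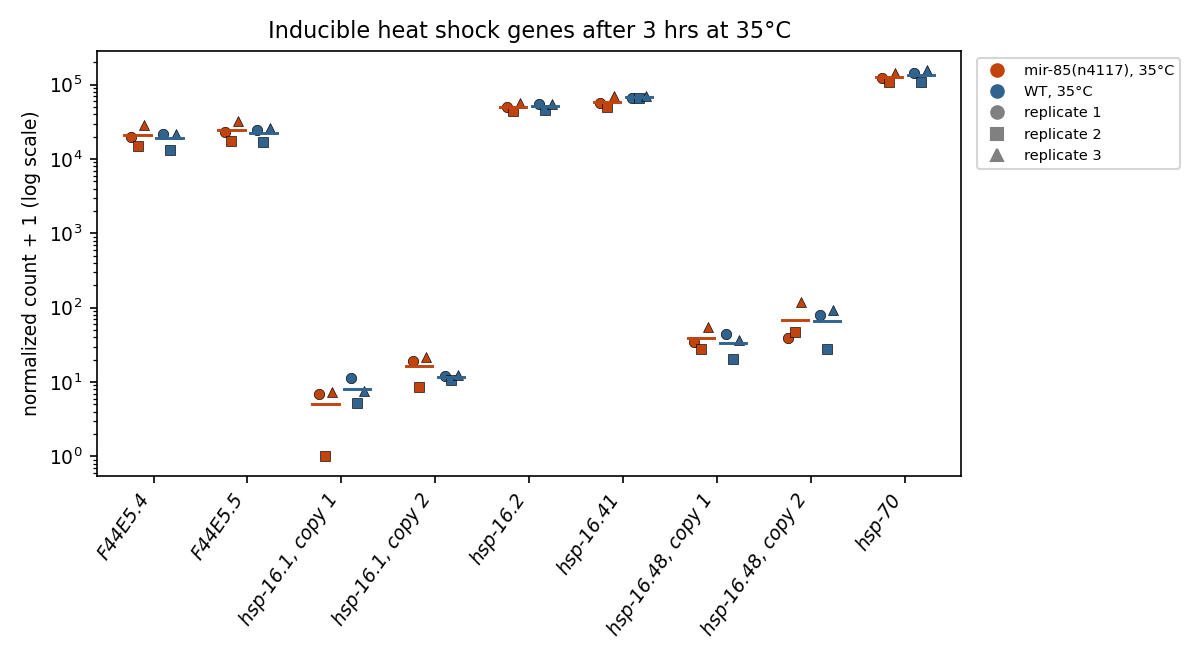
Normalized counts plus 1 (log scale) of the inducible HSP70 and hsp-16 genes in each mir-85(n4117) library (left, red) and each WT library (right, blue) after 3 hrs at 35°C, with 1 symbol per replicate and lines at the means. The groups overlap for each gene, and for hsp-70 the values run from 109451 to 145474 in the mutant and from 109329 to 157103 in WT.

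Most of the called differences in heated animals followed the replicate number. Over 14659 protein-coding genes tested, the median SD of log2 CPM within a strain was 0.296 in mir-85(n4117) and 0.283 in WT. This SD covers all spread between single libraries of a strain, not only that linked to the replicate number. The median absolute log2 fold change between strains was 0.192. It compares groups of 3 libraries, so its size cannot be set directly against that SD. In an edgeR test of the replicate number across both strains, 499 protein-coding genes (3.16% of genes tested) had an adjusted p under 0.05, and 3038 genes (19.2%) an unadjusted one. In 225 of the 499, replicate 2 was the highest library in both strains, and in 272 it was the lowest in both. The departure of replicate 2 from the mean of replicates 1 and 3 had the same sign in both strains for 65.4% of genes. The count turns on single libraries. Without mir-85(n4117) replicate 2 no gene passed and without WT replicate 1 only 2 did, while 877 passed without WT replicate 3 and the other 3 choices gave 386 to 695.

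**Figure D4:**
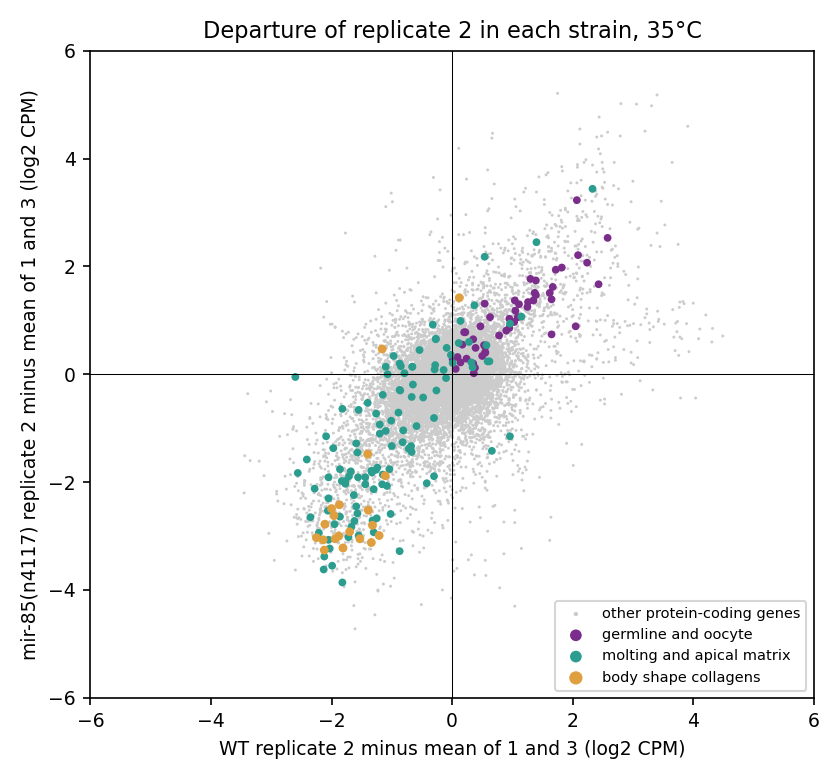
Replicate 2 minus the mean of replicates 1 and 3 in log2 CPM at 35°C, in mir-85(n4117) (vertical axis) against WT (horizontal axis), with 1 point per protein-coding gene tested and 3 gene lists in colour. Germline and oocyte genes lie toward the upper right, and most body shape collagens and molting genes toward the lower left, and 65.4% of all points have the same sign in both strains.

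The genes with the smallest p between replicates were mainly ones with replicate 2 on top. They included puf-5, an RNA-binding regulator of oocytes, gfat-2, an enzyme that makes the hexosamine precursor of chitin, era-1, a maternal RNA of the embryo, meg-3, a germ granule gene, and the collagen gene col-143, as well as K11D12.13, K04C1.5 and C17E7.4. puf-5 had 408, 1583 and 394 normalized counts in mir-85(n4117), against 828, 3282 and 1035 in WT. gfat-2 had 427, 1383 and 442 in mir-85(n4117), against 790, 2862 and 854 in WT. In both genes replicate 2 was far above the other libraries of its strain, and within each pair the mutant was lower. K10D3.4 and F13H8.5 ran the other way. K10D3.4 had 1137, 269 and 1134 normalized counts in mir-85(n4117), against 880, 244 and 751 in WT. The adjusted p of all 10 genes was 0.0355 in edgeR.

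Of 50 germline and oocyte genes, all of which were tested, 22 differed between replicates, against 3.16% of all genes and each with replicate 2 highest in both strains, and 46 had replicate 2 highest in both strains, against 22.2% of all genes. The median level of the list, as log2 CPM minus the mean of the 6 libraries, was -0.44, 0.46 and -0.63 in mir-85(n4117), against -0.19, 0.86 and -0.01 in WT. Less RNA of these genes per germ cell and fewer germ cells per animal cannot be told apart in whole worms. cpg-1, an eggshell proteoglycan gene, had 1973, 7006 and 2613 normalized counts in mir-85(n4117), against 4322, 16405 and 6151 in WT. rme-2, the yolk receptor of oocytes, had 904, 2899 and 1137 in mir-85(n4117), against 1793, 6152 and 2224 in WT. gld-1, a translational repressor of the earlier germline, had 1933, 3122 and 1719 in mir-85(n4117), against 3579, 3695 and 2819 in WT.

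Between strains, 41 of these 50 genes had a negative and 9 a positive log2 fold change, with a median of -0.31 against 0.02 over all genes tested. None had an unadjusted p under 0.05 in edgeR without the pairs, and none an adjusted one. With the replicate number as a block, 22 were lower at an unadjusted p under 0.05, against 4.33% of all genes, and 27 were lower in all 3 same-numbered pairs, against 15.9% of all genes. The difference was -0.32 in pair 1, -0.28 in pair 2 and -0.48 in pair 3 as the median of the list. For cpg-1 it was -1.13, -1.23 and -1.23. No member was called by edgeR with the block. DESeq2 with the block called 4 lower, against 0.444% of genes with an adjusted p: cpg-1, puf-5, rme-2 and puf-3, another oocyte PUF gene. The list's median was 0.11 with the lane as a covariate and 0.05 without WT replicate 2, so its sign changed without that library, and it was -0.86 without mir-85(n4117) replicate 2.

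The body shape collagens, which give dumpy, roller and blister mutants their names, showed the opposite order of replicates. Of 20, all tested, 8 differed between replicates, against 3.16% of all genes and each with replicate 2 lowest in both strains, and 18 had replicate 2 lowest in both strains, against 23.6% of all genes. Their median level was 0.83, -1.74 and 1.25 in mir-85(n4117), against 0.61, -1.25 and 0.37 in WT. dpy-13 had 28801, 6008 and 39433 normalized counts in mir-85(n4117), against 31011, 6989 and 25045 in WT. bli-1, a collagen of the struts of the adult cuticle, had 3472, 945 and 3471 in mir-85(n4117), against 2113, 977 and 2096 in WT. All 20 had a positive log2 fold change between strains, against 52.7% of all genes, with a median of 0.47 and a highest value of 0.67, but none reached an unadjusted p of 0.05 with or without the block. The pairs did not go one way, with medians of 0.04, -0.38 and 0.68, and the median with the block was 0.24. The list's median was -0.24 with the lane as a covariate, 0.06 without WT replicate 2, 0.01 without mir-85(n4117) replicate 3 and 0.97 without mir-85(n4117) replicate 2.

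Molting and apical matrix genes, which hold hedgehog-related, patched-related and cuticlin genes, had the same order of replicates as the body shape collagens. Of 134, 112 were tested, 18 of these differed between replicates with replicate 2 lowest in both strains, against 3.16% of all genes called, and 75 had replicate 2 lowest in both, against 23.6% of all genes. grl-16, a hedgehog-related gene, had 16697, 4984 and 20952 normalized counts in mir-85(n4117), against 17404, 4103 and 16628 in WT. ptr-1, a patched-related gene, had 1910, 453 and 1809 in mir-85(n4117), against 1340, 279 and 680 in WT. The mutant was higher in every pair for ptr-1. Between strains, 90 of the 112 had a positive and 22 a negative log2 fold change, with a median of 0.36, and pair medians of 0.14, 0.25 and 0.50. With the block, 17 were higher at an unadjusted p under 0.05 and none lower, against 3.3% and 4.33% of all genes. Without it, cut-3 and ptr-23 were the 2 higher ones, against 1.13% of all genes, the log2 fold change being 1.74 (SE 0.66) for cut-3 and 0.54 (SE 0.22) for ptr-23. The median of the list was 0.02 with the lane as a covariate, 0.11 without WT replicate 2 and 0.14 without mir-85(n4117) replicate 3, against 0.61 without WT replicate 1 and 0.62 without mir-85(n4117) replicate 2.

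The cuticle collagens named col were split. Of 156, 137 were tested, and 39 differed between replicates, against 3.16% of all genes, 15 with replicate 2 highest in both strains and 24 with it lowest. col-143 had 50.0, 653 and 33.7 normalized counts in mir-85(n4117), against 93.8, 1610 and 170 in WT. The group with replicate 2 on top holds several collagens that were lower in the mutant in every pair. col-140 had 19101, 65423 and 15428 in mir-85(n4117), against 31222, 122165 and 46857 in WT. col-19, known for its expression in the adult, had 10856, 52881 and 5661 in mir-85(n4117), against 21283, 87982 and 32974 in WT, and its replicate difference had an adjusted p of 0.0776 in edgeR.

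Over the 137 col genes the median log2 fold change between strains was -0.11, with 55 positive and 82 negative values, and the pair medians were -0.18, -0.23 and -0.28. At an unadjusted p under 0.05, 35 were lower and 6 higher with the block, against 4.33% and 3.3% of all genes, and 1 was lower and 2 higher without it. The 2 higher ones, col-148 and col-87, had log2 fold changes of 1.73 and 1.09. Also, 40 were lower in all 3 pairs and 10 higher, against 15.9% and 14.7% of all genes. DESeq2 with the block called 14 lower, against 0.444% of all genes, including col-95, col-143, col-19 and col-140. None of these was called by edgeR in either fit, and with the lane as a covariate their log2 fold changes had the other sign (0.76, 1.39, 0.12 and 0.094). The list's median was 0.05 without WT replicate 3, near 0 without mir-85(n4117) replicate 2 and -0.24 without mir-85(n4117) replicate 3.

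Vitellogenin genes, which encode yolk proteins, spread widely. All 6 had replicate 2 highest in both strains, against 22.2% of all genes. All 6 also had a negative log2 fold change between strains, with a median of -0.68. The median level was -0.91, 1.59 and -3.67 in mir-85(n4117), against 0.47, 1.74 and 0.76 in WT, so that mir-85(n4117) replicate 3 stands apart. vit-2 had 3762, 20223 and 644 normalized counts in mir-85(n4117), against 12218, 40876 and 15673 in WT. vit-5 had 1605, 15940 and 113 in mir-85(n4117), against 4505, 17557 and 6084 in WT. The pair medians were -1.17, -0.12 and -4.41. With the replicate block the median was -1.70, and 2 of the 6 were lower at an unadjusted p under 0.05 in edgeR, against 4.33% of all genes. Their SE without the block between strains reached 1.45 for vit-5, and no member passed a test between strains or replicates after adjustment. The median was -0.12 without mir-85(n4117) replicate 3, -0.30 without mir-85(n4117) replicate 1, -0.19 without WT replicate 2, -0.13 with the lane as a covariate and -2.63 without mir-85(n4117) replicate 2.

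**Figure D5:**
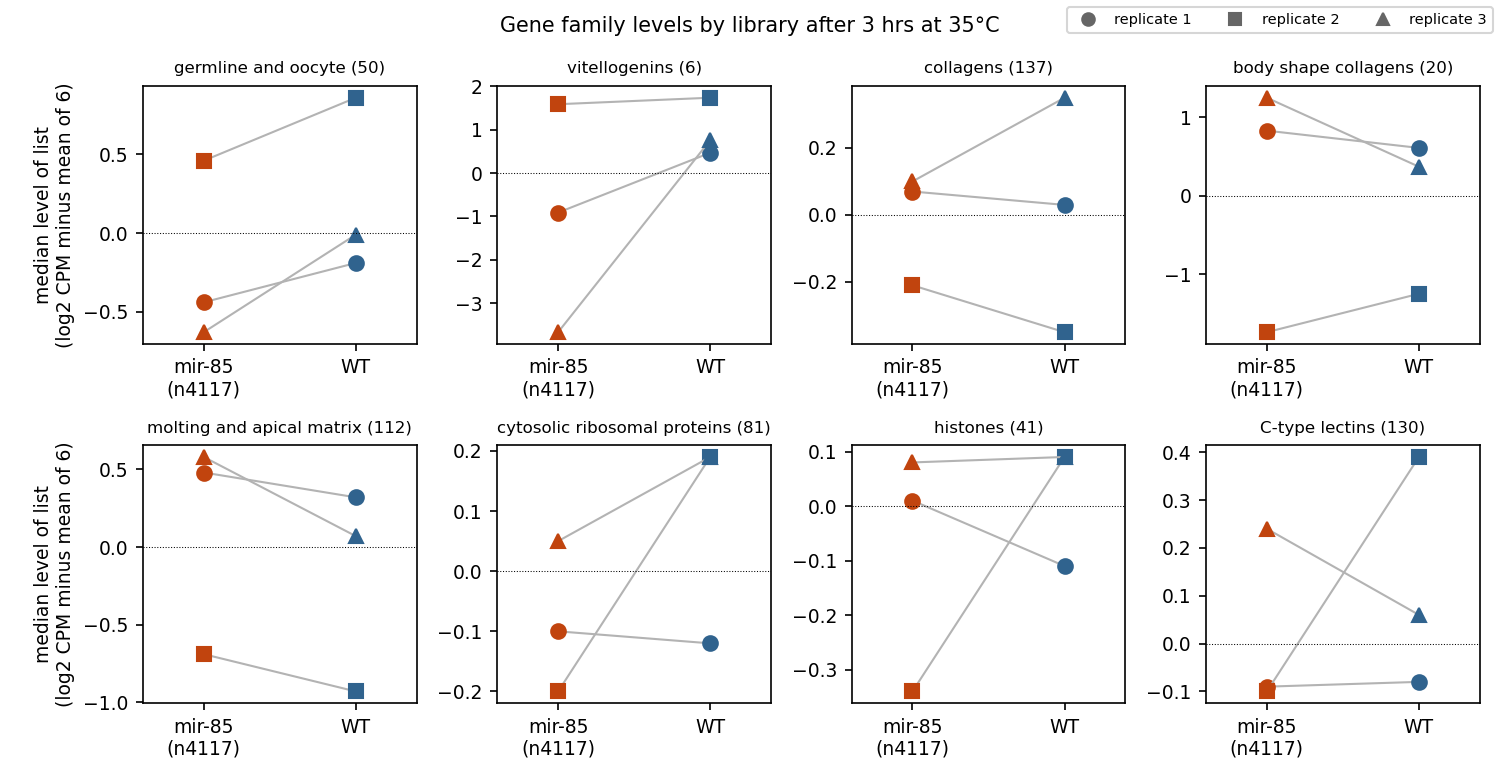
Median level of 8 gene lists (log2 CPM minus the mean of the 6 libraries) in mir-85(n4117) (left, red) and WT (right, blue) at 35°C, with the number of genes tested in parentheses, 1 symbol per replicate and lines joining libraries of the same number. Replicate 2 is at the top for germline and oocyte genes (0.46 in the mutant and 0.86 in WT) and at the bottom for body shape collagens (-1.74 in the mutant and -1.25 in WT).

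The genes that differed between replicates also leaned one way between strains. Of the 225 genes with replicate 2 highest, 221 had a negative log2 fold change between strains and 206 were lower in all 3 pairs, with a median of -0.73. Of the 272 with replicate 2 lowest, 244 had a positive one and 129 were higher in all 3 pairs, with a median of 0.41. Over all genes tested, 15.9% were lower and 14.7% higher in all 3 pairs. The 499 genes were chosen in these same libraries, by a fit that favours genes whose strain difference is alike in every pair. Their counts over all 3 pairs can be raised by that choice and are no test of a strain difference. This lean turned in the lane fit, which sets all 3 mutant libraries against WT replicate 1. There 43 of the 225 were negative (median 0.27) and 67 of the 272 positive (median -0.17). Without WT replicate 2, 87 of the 225 were negative (median 0.05) and 147 of the 272 positive (median 0.02), and without mir-85(n4117) replicate 3, 160 of the 272 were positive (median 0.05). The other medians with 1 library left out ran from -1.61 to -0.45 for the 225 and from 0.23 to 0.87 for the 272. None of the 499 was called between strains and 1, spex-3, had an unadjusted p under 0.05 without the block. With the block, 1206 of all genes (7.63%) had an unadjusted p under 0.05 and the called genes were again gly-20, R11H6.4 and R11H6.5. DESeq2 with the block called 19 genes higher (0.119% of those with an adjusted p) and 71 lower (0.444%), and 37 of these 90 were among the 499. Replicate 2 had the lowest share of ribosomal RNA counts of its strain in mir-85(n4117) (14.5%) and the highest in WT (32.9%). A link between that share and the replicate differences was not tested.

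Ribosomal protein genes of the cytosol leaned one way. Of 81, all tested, 80 had a negative log2 fold change, with a median of -0.18, whereas 52.7% of all genes had a positive one. None of the 81 had an unadjusted p under 0.05 in edgeR with or without the block. Median levels were -0.10, -0.20 and 0.05 in mir-85(n4117), against -0.12, 0.19 and 0.19 in WT. rps-6 had 30726, 30306 and 32056 normalized counts in mir-85(n4117), against 30414, 42765 and 42342 in WT. WT replicate 1, in the mutant's lane, was at the level of the mutant, and the list's median was 0.03 with the lane as a covariate and -0.28 without WT replicate 1. Mitochondrial ribosomal protein genes (66 tested) had a median of 0.03, and 12 of them were lower without overlap, against 3.63% of all genes. Proteasome genes (33 tested) had a median of -0.05, and 7 were lower and 0 higher without overlap, against 3.63% and 3.4% of all genes. None of either list had an unadjusted p under 0.05 in edgeR.

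In the defence-related families, C-type lectin genes had a median of 0.01 over 130 tested of 240, with 9 lower and 1 higher at an unadjusted p under 0.05, against 1.25% and 1.13% of all genes. clec-85 had 485, 584 and 495 normalized counts in mir-85(n4117), against 840, 983 and 1117 in WT (log2 fold change -0.91, SE 0.17). clec-51 had 351, 396 and 444 in mir-85(n4117), against 593, 709 and 639 in WT (log2 fold change -0.70, SE 0.16). Neither passed the replicate test, while clec-87 and clec-88 did, with replicate 2 highest. The pair medians of the lectins were 0.04, -0.28 and 0.19.

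Lysozyme, saposin and antimicrobial peptide genes had a median of -0.17 over 59 tested. At that limit 4 were lower and none higher, against 1.25% and 1.13% of all genes. lys-1, a lysozyme gene, had 3928, 2845 and 4262 normalized counts in mir-85(n4117), against 4797, 5731 and 5053 in WT. spp-17, a saposin-like gene, had 4085, 2767 and 3723 in mir-85(n4117), against 4201, 5379 and 5354 in WT. Both were lower in each pair and without overlap, and the log2 fold change of each was -0.50 (SE 0.20). The list's median was 0.21 with the lane as a covariate and 0.01 without mir-85(n4117) replicate 2.

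Glutathione S-transferase genes, which act in detoxification, had a median of -0.12 over 38 tested of 47. At an unadjusted p under 0.05, 4 were lower and none higher, against 1.25% and 1.13% of all genes. gst-28 had 211, 248 and 262 normalized counts in mir-85(n4117), against 374, 633 and 384 in WT (log2 fold change -0.95, SE 0.25). gst-39 had 199, 206 and 203 in mir-85(n4117), against 292, 240 and 311 in WT (log2 fold change -0.47, SE 0.18). UDP-glucuronosyltransferase genes (60 tested), cytochrome P450 genes (56 tested) and nuclear hormone receptor genes (180 tested) had medians of 0.20, 0.14 and -0.03, with 1, 0 and 1 higher and 0, 0 and 2 lower at that limit in edgeR. The median of the UDP-glucuronosyltransferase genes was -0.11 with the lane as a covariate and 0.43 without WT replicate 1. That of the cytochrome P450 genes was 0.035 with the block and -0.15 without mir-85(n4117) replicate 3.

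Histone genes went both ways, and many are near-identical copies whose reads cannot be placed on 1 gene. Of 41 tested of 72, 3 were higher and 6 lower at an unadjusted p under 0.05, against 1.13% and 1.25% of all genes. The median was -0.07. his-16 had 1217, 1033 and 1627 normalized counts in mir-85(n4117), against 516, 756 and 701 in WT (log2 fold change 0.97, SE 0.23). his-59 had 12090, 13663 and 16664 in mir-85(n4117), against 18388, 29805 and 21678 in WT (log2 fold change -0.72, SE 0.23), and his-64 and his-67 had log2 fold changes of -0.72 (SE 0.27) and -1.18 (SE 0.46). Major sperm protein genes, another family of near-identical copies, had a median of -0.37 over 29 tested and none at that limit, with pair medians of -0.44, -0.79 and 0.30. Their median was -0.056 without WT replicate 2 and -0.57 without WT replicate 3.

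In the other families, at most 4 genes of a list were higher, or lower, at an unadjusted p under 0.05. Over all genes tested, 1.13% were higher and 1.25% lower at that limit. Per list, the numbers higher and lower at an unadjusted p under 0.05 were 2 and 4 of 130 F-box genes, 0 and 2 of 51 MATH and BATH genes, 0 and 0 of 20 pals genes, 3 and 3 of 97 chemoreceptor genes, 0 and 0 of 55 neuropeptide and insulin genes, and 1 and 1 of 60 sperm genes outside the msp family. Their medians were -0.08, -0.07, -0.13, 0.05, -0.02 and -0.12. Of 139 snoRNA genes 4 were higher and 3 lower at that limit (median -0.01), and of 14 microRNA genes tested, 1 was higher (median 0.03). All 14 genes tested of the mitochondrial genome had replicate 2 lowest in both strains, against 23.6% of all genes, and their median between strains was 0.13.

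The 21 genes of the microRNA pathway and of developmental timing had a median of 0.03 and none at an unadjusted p under 0.05 in edgeR. dcr-1, the Dicer nuclease, had 2326, 2752 and 1858 normalized counts in mir-85(n4117), against 1810, 1687 and 1847 in WT (log2 fold change 0.38, SE 0.18). ain-2, a GW182-type partner of Argonautes, had 2086, 2128 and 1798 in mir-85(n4117), against 1681, 1687 and 1556 in WT (log2 fold change 0.29, SE 0.14). lin-41, a target of let-7 that also acts in oocytes, was the member that differed between replicates, with 478, 996 and 454 in mir-85(n4117), against 702, 1281 and 756 in WT.

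The strain difference at 35°C was also set against that of the unheated animals, which are other libraries. No gene passed the limits in the interaction of strain and temperature among 16585 tested by edgeR, where 377 (2.27%) had an unadjusted p under 0.05, and DESeq2 called 1, ZC190.4. At 20°C the log2 fold change was 1.78 (SE 0.19) for gly-20 and -6.17 (SE 0.28) for R11H6.5. The unadjusted interaction p was 0.0019 for hsp-70 (adjusted p 1.00), with a log2 fold change of -0.11 at 35°C and 3.10 (SE 0.70) at 20°C. At 20°C hsp-70 had 334, 1690 and 1648 normalized counts in mir-85(n4117), against 239, 105 and 72.9 in WT. Of the 20°C libraries too, lane 8 held only WT replicates 2 and 3, so strain and lane cannot be separated for these. The replicates numbered 1, which shared lane 3, lay closest together, at 334 and 239. Mutant replicates 2 and 3 were also far above mutant replicate 1, although all mutant libraries shared that lane. WT replicate 3 at 20°C stands apart with 65.5% of its counts on ribosomal RNA genes, against 13.7% to 27.1% in the other 20°C libraries. Without it, the log2 fold change of hsp-70 at 20°C was 2.83 (SE 0.83) and the unadjusted interaction p was 0.0049 in edgeR, and again no gene passed the interaction. The deviations of the 35°C libraries from their group mean correlated with those of the same-numbered 20°C libraries at r = -0.25, -0.39 and 0.45 in mir-85(n4117) and at 0.32, 0.14 and 0.42 in WT over 14659 genes, which are not independent replicates. The sign of r was thus negative only for replicates 1 and 2 of the mutant. A link between same-numbered libraries of the 2 temperatures is not established.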

How the data were processed

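The authors depleted ribosomal RNA, made stranded libraries, aligned the reads to WBcel235 with STAR (version not given in the sources used here) and counted them on genes with featureCounts 1.6.5. Each deposited table gives unnormalized read counts as whole numbers for 46904 genes. The headers name Ensembl release 100, and names, classes and positions come from release 115 (46817 identifiers matched). The headers show no option to count reads with several alignments.

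Strains were compared over the 6 heated libraries in R 4.3.3 with edgeR 4.0.16 (filterByExpr, TMM, robust quasi-likelihood F-test, p-values adjusted by Benjamini-Hochberg over all genes tested), with the limits of the study's methods. The SE was obtained from each log2 fold change and its F statistic (absolute change over the root of F). Log2 CPM used a prior count of 2. Replicates were compared in a fit with strain as a covariate, and the interaction in a fit of 12 libraries. Alternatives were DESeq2 1.42.0, RLE factors, other filters, all 12 libraries, the replicate number as a block, the lane, calls over all gene classes, and each library left out in turn. DESeq2 with the block was added after seeing the data. The procedures were also run on simulated counts with planted strain and replicate differences. That simulation held no lane effect and no single deviant library, so it cannot show how the calls behave where these occur.

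Replicate numbers come from the titles. Same-numbered libraries were treated as pairs. Deviations from the group means correlated at 0.54, 0.607 and 0.367 between them over 14659 genes, and each library correlated best with its own number. These correlations use the same values as the pair results, so they are no separate support for the pairing. Letters that name the deposited tables run in another order than these numbers, so that a shared culture or day is not established and the pair values rest on the title numbers. The study's methods call the samples biological replicates, and p-values measure only the spread between these samples. Library totals were 23871531 to 31348387 counts.

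Genes named are mir-85, F49E12.8, called genes and their neighbours, the 10 largest differences in each direction among protein-coding genes with an unadjusted p under 0.05 and no overlap, heat shock genes, the 10 genes with the smallest replicate p, and up to 4 members per list with the smallest p between strains or replicates. Other collagen, oocyte, pud and metabolic genes were named after their values were seen. The members and the 29 lists were chosen with earlier results of these data known. Sequences were not analysed here.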

Additional observations from a re-analysis of the deposited data

How the results depend on the processing

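The calls between strains depended on the tool, the filter and the libraries. The number of genes called higher was 3 with DESeq2, 3 with no filter on low counts, 19 in DESeq2 with the replicate block, 0 with at least 10 counts in every library, 0 with the lane as a covariate and 0 to 0 with 1 library left out. The number called lower was 8 with DESeq2, 5 with no filter, 5 with all 12 libraries in the fit, 71 in DESeq2 with the replicate block, 0 with at least 10 counts in every library, 0 with the lane and 0 to 1 with 1 library left out. The replicate difference was called for 1494 genes by the likelihood ratio test of DESeq2, for 2549 with no filter and for 0 to 877 with 1 library left out. The interaction was called for 1 gene (ZC190.4) by DESeq2 and for 0 in edgeR with the replicate block, as without WT replicate 3 at 20°C, a setting chosen after seeing the data. RLE factors and the replicate block in edgeR kept the counts at 1 higher and 2 lower, and gly-20, R11H6.4 and R11H6.5 had adjusted p-values of 0.0337, 0.0106 and 0.0106 with the block. The block changed no other call of a named gene in edgeR.

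Some log2 fold changes between strains changed sign, all of them in genes or lists without a call in edgeR, although DESeq2 with the block called col-143, col-95, col-140, col-19 and K11D12.13. With the lane as a covariate they were -0.036 for F44E5.4, -0.035 for F44E5.5, -0.15 and -0.24 for the copies of hsp-16.48, 1.39 for col-143, 0.76 for col-95, -0.33 for dpy-13, -0.29 for grl-16, 0.029 for rps-6, 0.39 for vit-5, 0.86 for meg-3, 0.58 for K11D12.13, 0.62 for K04C1.5, -0.31 for F13H8.5, 1.03 for C17E7.4, -0.057 for K10D3.4, 0.006 for ccnk-1, 0.094 for col-140, 0.12 for col-19 and 0.11 for the median of germline and oocyte genes. Of the 29 list medians, 15 changed sign with the lane and 19 with at least 1 library left out. The lane gave -0.24 for body shape collagens, -0.11 for UDP-glucuronosyltransferases, 0.21 for lysozymes and related genes, 0.22 for snoRNA genes, 0.10 for pals, -0.19 for chemoreceptors, -0.07 for the mitochondrial genome, -0.15 for hsp-16 genes, -0.15 for microRNA genes, and -0.036 to 0.09 for inducible HSP70, ribosomal protein (cytosolic and mitochondrial), nuclear hormone receptor and neuropeptide genes. With 1 library left out, they ran from -0.12 to 0.36 for F44E5.4, from -0.16 to 0.31 for F44E5.5, from -0.10 to 0.49 and from -0.66 to 0.34 for the copies of hsp-16.48, from -0.14 to 0.053 for hsp-16.2, from -3.89 to 0.90 for col-143, from -0.27 to 0.71 for dpy-13, from -0.26 to 0.58 for grl-16, from -1.91 to 0.92 for meg-3, from -3.44 to 0.15 for vit-5, from -3.11 to 0.26 for K11D12.13, from -2.66 to 0.75 for K04C1.5, from -2.91 to 0.62 for C17E7.4, from -0.86 to 0.051 for the median of germline and oocyte genes and from -0.24 to 0.046 for that of the col genes. The cause was not tested. With 3 libraries a strain, 1 lane that holds WT only and low counts for mir-85, hsp-16.1 and hsp-16.48, differences in single genes of the size seen between replicates could not be told from the spread.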

Other observations

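The 4 genes of the propionate breakdown pathway given here, chosen after their values were seen, differed most between 1 WT library and the other 2. alh-8, looked up together with them, was called between strains in no fit, and its values are not given here. acdh-1, an acyl-CoA dehydrogenase gene, had 37368, 26644 and 30052 normalized counts in mir-85(n4117), against 30804, 5526 and 6126 in WT. hach-1, a hydrolase gene, had 7748, 8313 and 7850 in mir-85(n4117), against 5577, 2795 and 2062 in WT. hphd-1, a dehydrogenase gene, had 11591, 12221 and 10606 in mir-85(n4117), against 9978, 5001 and 3593 in WT, and ech-6, a hydratase gene, had 16741, 16339 and 14930 in mir-85(n4117), against 15213, 6747 and 6445 in WT. In all 4 genes WT replicate 1 was the WT library closest to the mutant, and WT replicates 2 and 3, the libraries of lane 8, lay below it. Their log2 fold changes were 1.15, 1.20, 0.89 and 0.76 without the lane, and 0.03, 0.52, 0.20 and 0.07 with the lane as a covariate. Lane and library cannot be told apart here. DESeq2 with the replicate block called acdh-1, hach-1 and hphd-1 higher, and edgeR called none.

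pud-3 and pud-4, chosen in the same way, were lower in the mutant in every pair, and pudl-1, listed above among the genes toward higher values, was higher. pud-3 had 1196, 1475 and 2667 normalized counts in mir-85(n4117), against 6220, 3442 and 7260 in WT. pud-4 had 673, 669 and 1822 in mir-85(n4117), against 2695, 1910 and 3392 in WT. pudl-1 had 21, 29 and 20.0 in mir-85(n4117), against 1.02, 5.33 and 2.82 in WT. No library overlapped between strains in the 3 genes, a state that 3.63% of all genes tested showed toward lower and 3.4% toward higher values. The adjusted p in edgeR was 0.995 for each of the 3, while DESeq2 with the block called pud-3 and pud-4.

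Among RNA classes other than protein-coding, 29 of 34 snRNA genes tested had a negative log2 fold change (median -0.38), with pair medians of 0.14, -1.03 and -0.29 and a median of 0.21 with the lane as a covariate. Of 556 pseudogenes tested, 349 had a positive log2 fold change (median 0.09). Over all genes tested, 52.7% had a positive one.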
